A study of Mus musculus with 6 samples.

Results

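Hyaluronan is a long, unbranched sugar polymer of the pericellular and extracellular matrix, and the 10 genes described here make it, bind it or break it down. They are the hyaluronan synthases Has1, Has2 and Has3, the receptors Cd44 and Hmmr, the binding proteins Vcan and Tnfaip6, and the degradation genes Hyal1, Hyal2 and Cemip. They were chosen by name, by the gene symbol in the deposited table, and each symbol stood for a single row, so that 10 of 21929 protein-coding genes were taken. The libraries are RNA-seq of L929, an established mouse fibroblast line, in co-culture with tumour cells. The 3 Biotin-positive libraries hold cells labelled as having interacted with the tumour cells, called MFCSTCL there, and the 3 Biotin-negative libraries hold cells labelled as uninteracted. The labels list no genetic change and no agent besides the co-culture, and all 6 libraries carry the same batch entry. Every library is thus labelled as L929 cells from a co-culture with tumour cells, and none as L929 grown alone. Separate cultures are not stated for the libraries within a group, and p-values therefore cover no more than library-to-library spread, part of which may be technical.

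Hyaluronan alternates glucuronic acid and N-acetylglucosamine. The synthases sit in the plasma membrane, polymerise it from UDP-activated sugars and push the growing chain out of the cell, where it forms a coat around fibroblasts and swells in wounds and in tumour stroma. Cells hold it through CD44, matrix proteoglycans such as versican are tethered to it, and it is cut at the surface and in lysosomes by hyaluronidases and by the CEMIP family.

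The deposited unit, FPKM, is corrected for gene length as well as library size, so that levels can be compared between genes. The FPKM of a library summed to 349753 to 356681 in Biotin-positive and to 337771 to 340511 in Biotin-negative libraries, and 10838 to 10862 genes against 10724 to 10735 genes reached 1 FPKM. The values hold no read totals, and the depth is unknown. Genes that reached 1 FPKM in 3 or more of 6 libraries were tested with limma on log2(FPKM + 1), and log2 differences below are Biotin-positive minus Biotin-negative on that scale, which understates changes of low genes. Errors are SD over 3 libraries per group, or SE of a log2 difference. Mitochondrial genes held 3.79 ± 0.0751% of the FPKM in Biotin-positive and 3.75 ± 0.162% in Biotin-negative libraries. Of 14 fibroblast markers 8 were tested, of which 3 rose and 5 fell. The collagen genes Col1a1, Col1a2 and Col3a1 fell with log2 differences of -0.88, -1.04 and -1.82, and the receptor genes Pdgfra and Pdgfrb with -0.74 and -1.18. Col1a1 still averaged 90.3 FPKM in Biotin-positive libraries and Col1a2 180.0 FPKM. Vim and S100a4 rose with 1.11 and 0.42, and Twist1 averaged 6.41 FPKM in Biotin-positive libraries and was listed at 0 in the Biotin-negative ones. Twist1, the third marker that rose, passed the filter through the Biotin-positive libraries alone and so could not have been called lower. Dcn, Lum, Thy1, Fap, Postn and Fbln1 stayed under 1 FPKM in all 6. The markers together summed to 2453.9 to 2525.9 FPKM against 1969.1 to 2018.9 FPKM. Most of each sum came from Vim, with means of 1417.5 against 658 FPKM, and S100a4, with 722 against 539 FPKM. The higher sum therefore hides the falls of the collagen and receptor genes. Of 25 epithelial markers 23 stayed under 1 FPKM in every library. The exceptions were Krt7, with 24.7 ± 1.18 FPKM in Biotin-positive against 0.236 ± 0.0759 FPKM in Biotin-negative libraries, and Krt8, with 20.8 ± 0.355 against 0.0362 ± 0.0153 FPKM; the Krt8 level is uncertain, as 51.8% of this transcript matches other annotated genes almost exactly. The summed level of the other 23 was 1.75 to 2.47 FPKM in Biotin-positive and 2.32 to 2.54 FPKM in Biotin-negative libraries. The defining epithelial genes Epcam and Cdh1 were at or near 0 throughout. The 8 endothelial markers summed to 0.536 to 0.941 FPKM against 0.216 to 0.279 FPKM, and the 10 macrophage and leukocyte markers to 9.2 to 10.4 FPKM against 9.3 to 11.2 FPKM. The part of the keratin rise and of the fibroblast marker shifts in the results below was not tested.

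Of the 10 genes, 5 reached testing, each in both groups, and all of these passed: Cd44, Hmmr and Hyal2 rose, and Vcan and Hyal1 fell. Among all 11029 tested genes 73.9% passed, 37.8% upward and 36.1% downward, so that passing as such does not set these genes apart. In bulk libraries fewer cells expressing a gene and less RNA per cell cannot be told apart. The other 5 genes, Has1, Has2, Has3, Tnfaip6 and Cemip, stayed under 1 FPKM in every library and are given by their values. Their exact permutation tests (two-sided) on 3 against 3 libraries cannot go below 0.10. For 8 of the 10 genes the Biotin-positive and Biotin-negative values did not overlap, with Has1 and Has3 as the exceptions; among all tested genes the groups did not overlap for 76.9%, and without the filter on low values for 60.4%.

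**Figure D1:**
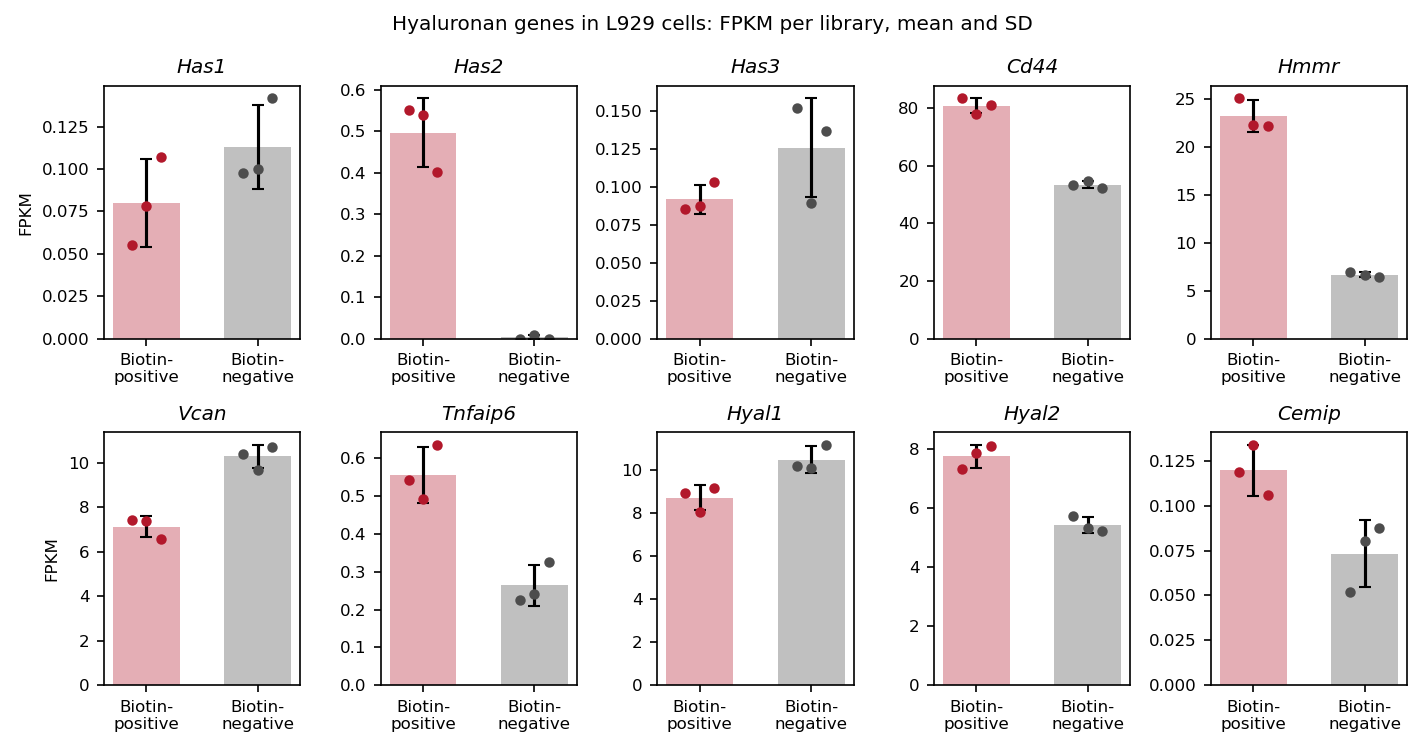
FPKM of the 10 hyaluronan genes; points are libraries, bars the group mean and error bars the SD (n = 3), each panel on its own scale from 0. Cd44 stands highest, at 78.1 to 83.4 FPKM in Biotin-positive libraries, and the 3 synthases stay under 1 FPKM in all of them.

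Synthase transcripts were scarce in both groups, and the synthase listed highest differed between them. Has2, the synthase that supplies most hyaluronan in embryonic mouse mesenchyme, had 0.551, 0.540 and 0.401 FPKM in the Biotin-positive libraries, against 0, 0.00946 and 0 FPKM in the Biotin-negative ones. Every Biotin-positive library lay above every Biotin-negative one, with an exact permutation p of 0.10, the smallest possible. In a fit without the filter on low values its log2 difference was 0.58 (SE 0.0415, limma adjusted p = 5.06e-05), where 54.1% of 17058 genes passed, 28.4% upward and 25.6% downward. With Biotin-negative values at or near 0, Has2 could not have been called lower, and values at this floor can hardly spread. A Has2 antisense gene, Has2os, overlaps Has2 in the annotation, and whether the counting used strand is not given in the sources used here, so part of the reads could belong to it.

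Has1, the synthase on chromosome 17, had 0.0554, 0.0781 and 0.107 FPKM in the Biotin-positive libraries and 0.0979, 0.0998 and 0.142 FPKM in the Biotin-negative ones. The ranges overlapped (exact permutation p = 0.30). Has3, which makes shorter chains, had 0.0853, 0.0875 and 0.103 FPKM against 0.152, 0.0892 and 0.137 FPKM, again with overlap (exact permutation p = 0.20). The end of Has3 overlaps the gene Chtf8 on the other strand, which was tested at far higher levels. In the fit without the filter on low values both had a log2 difference of -0.04, and neither passed: Has1 with SE 0.0256 and a limma adjusted p of 0.207, and Has3 with SE 0.0246 and 0.184.

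Together the 3 synthases had 0.669 ± 0.0511 FPKM in Biotin-positive and 0.242 ± 0.041 FPKM in Biotin-negative libraries (exact permutation p = 0.10, the smallest possible). Has2 made up 79.6, 76.5 and 65.7% of that sum in the Biotin-positive libraries, and 0, 4.76 and 0% in the Biotin-negative ones. In the Biotin-negative libraries the sum was instead divided between Has1, at 39.2 to 50.9%, and Has3, at 44.9 to 60.8%.

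**Figure D2:**
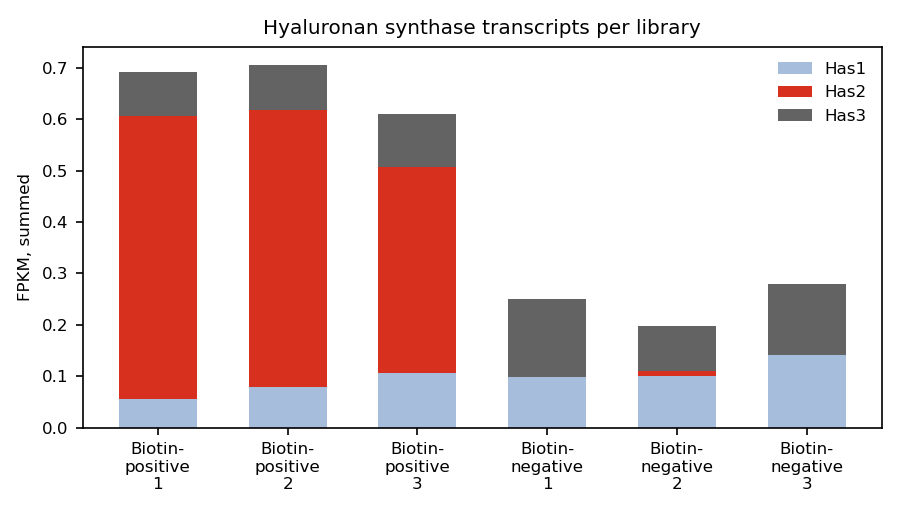
Stacked FPKM of Has1, Has2 and Has3 in each library. Has2 fills most of each Biotin-positive bar and is listed at 0 or barely visible in the Biotin-negative ones, and all sums stay under 1 FPKM.

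CD44 is the main cell-surface receptor for hyaluronan and anchors to actin through ezrin, radixin and moesin. Cd44 (chromosome 2, 102811141 to 102901665, ENSMUSG00000005087) had 83.4, 78.1 and 81.1 FPKM in the Biotin-positive libraries, against 53.2, 54.7 and 52.4 FPKM in the Biotin-negative ones. It was the highest of the 10 genes in every library, at the 96.6th to 96.8th percentile of all genes in Biotin-positive libraries and the 94.9th to 95.3rd in Biotin-negative ones. The groups did not overlap, and the rise was 1.51-fold (log2 difference 0.59, SE 0.0346, limma adjusted p = 9.29e-07). Gene-level FPKM do not tell the standard from the variant CD44 isoforms. Esrp1 and Esrp2, epithelial splicing factors that promote the variant forms, stayed under 1 FPKM in every library.

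Among 12 tested genes that work with CD44, 7 rose, 3 fell and 2 did not pass, with a median log2 difference of 0.38 against 0.01 over all tested genes. Beside this and the later list counts stand the shares over all tested genes, 37.8% upward and 36.1% downward. Ezr, encoding ezrin, had 64.5 ± 3.49 FPKM in Biotin-positive and 33.5 ± 1.65 FPKM in Biotin-negative libraries (log2 difference 0.92, SE 0.05, limma adjusted p = 5.54e-07). The relatives Msn and Rdx, named after their values were seen, also rose, with means of 173 against 103 FPKM for Msn and 34.9 against 26.0 FPKM for Rdx. Ezr, Msn and Rdx summed to 272 ± 5.00 FPKM in Biotin-positive and 162 ± 1.53 FPKM in Biotin-negative libraries (exact permutation p = 0.10, the smallest possible). Nf2, which encodes the related protein merlin, rose as well, with means of 28.7 against 22.2 FPKM (log2 difference 0.35). Nf2 was also named after its values were seen. Whether the link of CD44 to actin changed was not tested. The 3 that fell were a ligand of CD44 and enzymes that cut CD44 or other surface proteins. Spp1, which encodes the CD44 ligand osteopontin, had 290 ± 11.5 FPKM against 1301 ± 26.0 FPKM (log2 difference -2.16, SE 0.0357, limma adjusted p = 1.44e-09). The membrane metalloproteinase gene Mmp14, whose product cleaves CD44, had 59.3 ± 1.57 FPKM against 116 ± 5.44 FPKM (log2 difference -0.96), and the sheddase gene Adam17 averaged 20.7 against 36.7 FPKM. The related sheddase gene Adam10, at 23.0 and 22.2 FPKM, did not pass. Adam17 and Adam10 were named after their values were seen.

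RHAMM, the product of Hmmr, binds hyaluronan and, inside dividing cells, associates with spindle microtubules and the spindle factor TPX2. Hmmr (chromosome 11, 40701395 to 40733422, ENSMUSG00000020330) had 25.1, 22.3 and 22.2 FPKM in the Biotin-positive libraries, against 6.97, 6.67 and 6.41 FPKM in the Biotin-negative ones. The ratio of 3.47 (log2 difference 1.65, SE 0.0588, limma adjusted p = 5.53e-08) is the largest among the 5 tested hyaluronan genes. Of 24 tested genes on a list of RHAMM partners and other mitotic genes 23 rose, 0 fell and only the dynein light chain gene Dynll1, at 74.3 and 76.8 FPKM, did not pass. Over all tested genes 73.9% passed, 37.8% upward and 36.1% downward. The list's median log2 difference was 1.26 and its range -0.05 to 1.71, so the difference of Hmmr lies near its upper end. At the top were the midzone gene Prc1, with 78.2 ± 1.31 FPKM in Biotin-positive against 23.3 ± 0.721 FPKM in Biotin-negative libraries, the kinase gene Aurka (log2 difference 1.67) and the kinetochore gene Cenpf (9.75 ± 0.313 against 2.56 ± 0.149 FPKM). A share of 26.8% of the Prc1 transcript has a near-identical match elsewhere, so its level is uncertain. Tpx2 itself, named after its values were seen, averaged 58.5 against 24.9 FPKM. Set against the median of the list in the same library, Hmmr stood at 0.793, 0.741 and 0.762 in the Biotin-positive libraries and at 0.612, 0.585 and 0.585 in the Biotin-negative ones.

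The promoter of Hmmr is shown because it holds, in a single window, the elements common in promoters of mitotic genes. Capitals mark the CCAAT box, the element bound by the factor NF-Y and read here on the opposite strand as ATTGG, and the cell cycle homology region or CHR, TTTGAA, an element of many late cell cycle promoters. The window runs from 250 bases before to 20 after the RefSeq start (chr11:40733418-40733687, minus strand, GRCm38.p6).
Hmmr: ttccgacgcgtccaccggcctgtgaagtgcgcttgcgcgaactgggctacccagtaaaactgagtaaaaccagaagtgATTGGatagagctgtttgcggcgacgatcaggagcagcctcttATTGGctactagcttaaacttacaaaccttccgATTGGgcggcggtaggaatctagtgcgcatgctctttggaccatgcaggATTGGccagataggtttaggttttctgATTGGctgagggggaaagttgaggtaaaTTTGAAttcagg
The CCAAT box occurs 5 times, at 172, 129, 96, 47 and 20 bases before the start, and the CHR once, beginning 9 bases into the transcript. Searched on both strands in windows of 300 bases, at least 5 CCAAT boxes stood in 0.271% of 32851 RefSeq promoters, at least 1 in 37.4% and the CHR in 17.9%. The cut-off of 5 equals the count in Hmmr itself, so the 0.271% is a description and not a test of that promoter. A CHR and a CCAAT box together stood in 6.95% of all promoters, and in at least 1 promoter of 15 of the 21 genes of the mitotic list that have a sequence. Hmmr was not alone in this among the hyaluronan genes. The Has1 promoter also held both, with 1 CHR and 1 CCAAT box. Has1 stayed under 1 FPKM in every library and did not rise (log2 difference -0.04). These matches describe the letters and do not show binding.

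Versican, a large chondroitin sulphate proteoglycan that attaches to hyaluronan through its end domain, fell at the transcript level. Vcan (chromosome 13, 89655312 to 89742509, ENSMUSG00000021614) had 7.41, 7.38 and 6.57 FPKM in the Biotin-positive libraries, against 10.4, 9.69 and 10.7 FPKM in the Biotin-negative ones. The groups did not overlap, and the ratio was 0.693 (log2 difference -0.47, SE 0.0617, limma adjusted p = 0.000136). An antisense gene and a processed pseudogene, both on the other strand, overlap Vcan in the annotation.

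Of 16 genes that process versican, build its sugar chains or bind beside it, 9 were tested, of which 3 rose, 5 fell and 1 did not pass. Passing was common, at 73.9% of all tested genes. Adamts1, a protease that cleaves versican, averaged 4.88 ± 0.291 FPKM against 0.690 ± 0.170 FPKM (log2 difference 1.80, SE 0.0858, limma adjusted p = 2.75e-07), and its relative Adamts4, named after its values were seen, averaged 1.35 against 0.810 FPKM. Both passed the filter through the Biotin-positive libraries alone. Adamts5, a further versican-cleaving protease named after its values were seen, fell, with means of 1.93 against 3.01 FPKM. Csgalnact1, which starts chondroitin sulphate chains, had 7.11 ± 0.353 FPKM in Biotin-positive and 31.1 ± 0.351 FPKM in Biotin-negative libraries (log2 difference -1.99, SE 0.0452, limma adjusted p = 6.13e-09). Fibrillin-1, encoded by Fbn1 and a partner of versican in microfibrils, averaged 15.3 ± 0.605 against 31.9 ± 1.85 FPKM. A share of 20.4% of the Fbn1 transcript has a near-identical match elsewhere.

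Tnfaip6 encodes TSG-6, a secreted protein that transfers the heavy chains of inter-alpha-inhibitor onto hyaluronan. It had 0.542, 0.492 and 0.637 FPKM in the Biotin-positive libraries, against 0.224, 0.242 and 0.325 FPKM in the Biotin-negative ones. Every Biotin-positive library lay above every Biotin-negative one (exact permutation p = 0.10, the smallest possible), and without the filter on low values the log2 difference was 0.30 (SE 0.0478, limma adjusted p = 0.00196). The inter-alpha-inhibitor chains, the precursor gene Ambp and the pentraxin Ptx3, 7 genes in all, stayed under 1 FPKM in every library. Hapln4, a member of the link protein family that ties proteoglycans to hyaluronan, was the only tested gene of 7 link proteins and other lecticans. It averaged 3.65 ± 0.365 FPKM in Biotin-positive and 10.2 ± 0.495 FPKM in Biotin-negative libraries (log2 difference -1.27, SE 0.0701, limma adjusted p = 6.34e-07). Hapln1, a neighbour of Vcan on chromosome 13, was at or near 0 in all 6 libraries.

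The Tnfaip6 promoter (chr2:52037863-52038132, plus strand, GRCm38.p6) is shown because it is the only one of the 8 with a sequence that matches both the AP-1 motif, TGANTCA, and the TEAD motif, GGAATG, the element through which YAP acts, named in the title of the series. Capitals mark these matches, the TEAD motif on the opposite strand as CATTCC.
Tnfaip6: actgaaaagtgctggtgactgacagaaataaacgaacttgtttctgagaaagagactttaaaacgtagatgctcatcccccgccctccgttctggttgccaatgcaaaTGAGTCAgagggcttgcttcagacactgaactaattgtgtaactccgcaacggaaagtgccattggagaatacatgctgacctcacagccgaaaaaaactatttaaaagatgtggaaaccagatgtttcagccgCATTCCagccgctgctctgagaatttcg
AP-1 stands 142 bases before the RefSeq start and TEAD 8 bases before it; that start lies 104 bases into the gene as the file gives it. AP-1 matched 7.81% and TEAD 14.7% of all promoters. Among the 8 hyaluronan genes with a sequence the TEAD letters stood in 2, Tnfaip6 and Hyal2, and the AP-1 letters in 1. The promoters of Cd44 and Cemip held none of the 4 motifs.

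**Figure D3:**
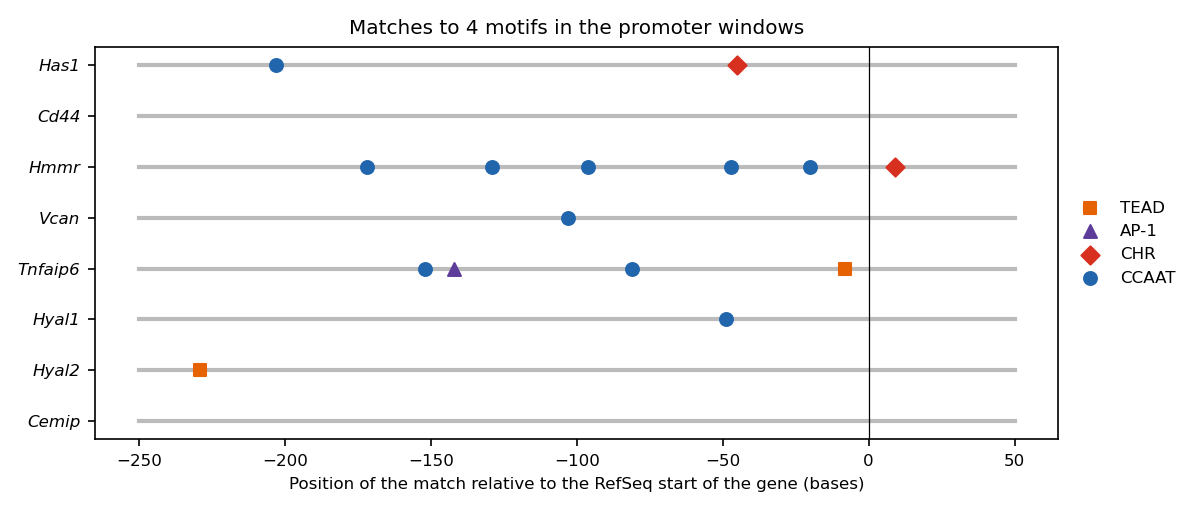
Matches to the CCAAT, CHR, TEAD and AP-1 letters on both strands, placed by distance in bases from the RefSeq start, in the promoter windows of the 8 hyaluronan genes with a sequence. The Hmmr window holds 5 CCAAT boxes and a CHR, and the Cd44 and Cemip windows hold no match.

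Hyal1 and Hyal2, neighbours on chromosome 9, moved in opposite directions. HYAL2 is anchored at the cell surface and cuts long hyaluronan into pieces, which HYAL1 digests further in lysosomes. Hyal2 (chromosome 9, 107567945 to 107572779, ENSMUSG00000010047) had 7.34, 7.87 and 8.11 FPKM in the Biotin-positive libraries, against 5.74, 5.32 and 5.23 FPKM in the Biotin-negative ones. The groups did not overlap, and the log2 difference was 0.45 (SE 0.0585, limma adjusted p = 0.000139). Hyal1 (chromosome 9, 107576927 to 107581710, ENSMUSG00000010051) had 8.95, 8.05 and 9.16 FPKM in the Biotin-positive libraries, against 10.2, 10.1 and 11.2 FPKM in the Biotin-negative ones. It fell with a log2 difference of -0.24 (SE 0.0631, limma adjusted p = 0.00761), the smallest change among the 5 tested hyaluronan genes. A share of 63.8% of its longest transcript is annotated also in Naa80 or Hyal3, which overlap it, so the level of Hyal1 is uncertain. The ratio of Hyal2 to Hyal1 was 0.820, 0.977 and 0.885 in the Biotin-positive libraries and 0.562, 0.528 and 0.467 in the Biotin-negative ones (exact permutation p = 0.10, the smallest possible). The sum of both was 16.5 ± 0.721 FPKM against 15.9 ± 0.5 FPKM (exact permutation p = 0.50).

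The promoters of this pair are shown since the genes lie 4148 bases apart and moved in opposite directions. Capitals mark the CCAAT box in Hyal1 (chr9:107576700-107576969, plus strand, GRCm38.p6) and the TEAD letters in Hyal2 (chr9:107568913-107569182, plus strand, GRCm38.p6).
Hyal1: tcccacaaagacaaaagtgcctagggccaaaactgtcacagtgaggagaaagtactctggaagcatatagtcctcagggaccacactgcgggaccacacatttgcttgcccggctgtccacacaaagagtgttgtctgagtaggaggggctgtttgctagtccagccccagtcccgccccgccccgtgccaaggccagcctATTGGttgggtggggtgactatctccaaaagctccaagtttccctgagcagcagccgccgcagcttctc
Hyal2: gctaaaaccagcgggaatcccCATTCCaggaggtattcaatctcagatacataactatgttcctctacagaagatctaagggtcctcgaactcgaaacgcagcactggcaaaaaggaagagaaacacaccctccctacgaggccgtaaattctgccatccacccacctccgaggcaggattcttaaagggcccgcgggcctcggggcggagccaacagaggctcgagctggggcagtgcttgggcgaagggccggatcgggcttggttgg
The CCAAT box of Hyal1 stands 49 bases before its start, as ATTGG, and Hyal2 has none. The TEAD letters of Hyal2 stand 229 bases before its start, as CATTCC, and Hyal1 has none. These starts are those of RefSeq. The RefSeq start of Hyal2 lies 1218 bases into the gene as the file gives it, so that the whole window falls inside the printed gene span, and that of Hyal1 lies 23 bases in.

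Within 100 kb of the pair the file holds 16 further genes, of which 13 were tested: 5 rose, 5 fell and 3 did not pass. Over all tested genes 73.9% passed, 37.8% upward and 36.1% downward, so calls among neighbours do not by themselves mark a locus. Rassf1 and Tusc2, just upstream of Hyal2, rose with log2 differences of 0.77 and 0.29. Hyal3, a hyaluronidase relative of low abundance with 1.50 ± 0.113 FPKM against 1.16 ± 0.0816 FPKM, rose with 0.21 (limma adjusted p = 0.0189), and Ifrd2 with 0.53. Sema3b, on the far side, fell with -0.53, as did Zmynd10 (-0.44), Nprl2 (-0.28), Cyb561d2 (-0.52) and Sema3f (-0.67), while Tmem115 (-0.04), Naa80 (-0.11) and Lsmem2 (0.20) did not pass. The call of Hyal3 was lost without Biotin-positive replicate 3 (limma adjusted p = 0.055), without Biotin-negative replicate 1 (0.064) and with quantile normalization (0.0763), and Lsmem2 passed without Biotin-negative replicate 3 (log2 difference 0.35). Gnai2, farther downstream, rose with 0.42. The 3 tested neighbours of Hmmr, which are Mat2b, Nudcd2 and Ccng1, all rose, with log2 differences of 0.32, 0.33 and 0.79. Beside Has3, Chtf8 rose (0.09) and Tango6 (-0.46), Utp4 (-0.31) and Sntb2 (-0.92) fell. Beside Cemip, Tlnrd1 (0.42) and Abhd17c (0.23) rose and Mesd (0.01) did not pass, and beside Tnfaip6 Nmi (0.54) rose and Rif1 (-0.13) fell. With single libraries left out, Chtf8 passed only without Biotin-positive replicate 3 (limma adjusted p = 0.0194, up to 0.134 in the others) and Rif1 only without Biotin-negative replicate 1 (0.0213, up to 0.139). Neither Spaca6 beside Has1 (0.12) nor Xrcc4 beside Vcan (-0.02) passed, and Has2 and Cd44 had no tested neighbour within 100 kb.

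**Figure D4:**
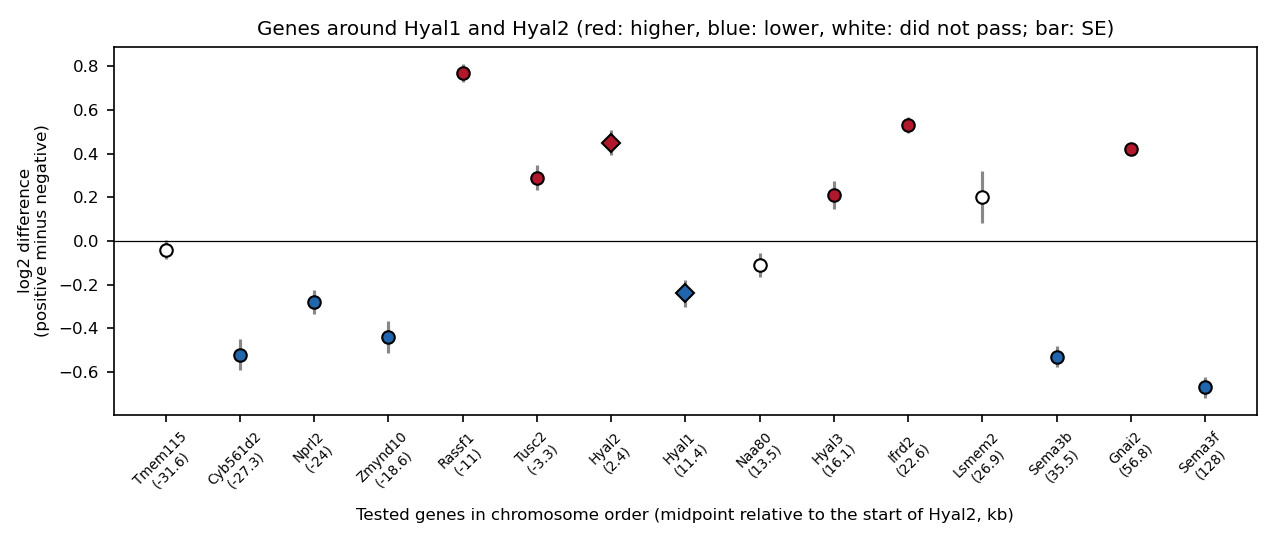
Log2 difference (Biotin-positive minus Biotin-negative, error bars SE) of the tested genes within 100 kb of Hyal1 and Hyal2, in chromosome order with the distance of each midpoint from the start of Hyal2 in kb. Hyal2 at 0.45 and Hyal1 at -0.24, drawn as diamonds, stand among neighbours of either direction.

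Cemip, which encodes a secreted hyaluronan-depolymerising protein, had 0.119, 0.134 and 0.106 FPKM in the Biotin-positive libraries, against 0.0521, 0.0803 and 0.0878 FPKM in the Biotin-negative ones. All stayed far below 1 FPKM, without overlap, and the fit without the filter on low values gave a log2 difference of 0.06 (SE 0.0198, limma adjusted p = 0.0395). Its membrane-bound relative Cemip2, a cell-surface hyaluronidase in mouse, was the more abundant of the pair, with 5.00 ± 0.0928 FPKM in Biotin-positive and 2.91 ± 0.204 FPKM in Biotin-negative libraries (log2 difference 0.62, SE 0.0601, limma adjusted p = 2.12e-05). Of 11 further degradation genes, 7 were tested, of which 3 rose, 3 fell and 1 did not pass, where 73.9% of all tested genes passed. Naglu, a lysosomal enzyme gene that acts on sulphated sugar chains rather than on hyaluronan itself, fell, with 14.6 ± 0.181 FPKM in Biotin-positive and 24.7 ± 0.107 FPKM in Biotin-negative libraries. Spam1 and Hyal5, sperm hyaluronidases, were listed at 0 in every library.

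Of 12 tested genes that supply or break down the UDP-sugars of hyaluronan and related chains, 2 rose, 7 fell and 3 did not pass. Over all tested genes 37.8% rose and 36.1% fell. The median log2 difference of the 12 was -0.21, and the 7 that fell include Nudt14, whose product breaks down such a sugar. Uap1l1, a relative of the enzyme that activates N-acetylglucosamine, averaged 44.3 ± 1.05 FPKM against 75.7 ± 1.70 FPKM (log2 difference -0.76, SE 0.0327, limma adjusted p = 1.55e-07). Gfpt1, the entry enzyme of the hexosamine pathway and named after its values were seen, averaged 13.5 against 18.9 FPKM. Gnpnat1, of the same pathway, averaged 15.6 ± 0.350 against 23.9 ± 5.20 FPKM and Nudt14, a UDP-glucose hydrolase, 3.92 ± 0.609 against 6.40 ± 1.57 FPKM. The Biotin-negative libraries spread widely for Gnpnat1, at 25.9, 18.0 and 27.8 FPKM, and 92.4% of its transcript has a near-identical match elsewhere, so this level is uncertain. Ugdh, which makes UDP-glucuronic acid, had 98.6 FPKM against 94.7 FPKM, and did not pass.

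Among 5 tested genes linked to synthase regulation or to hyaluronan export, 1 rose and 4 fell. Their effects on synthesis need not share a direction, so this count does not tell whether synthesis was favoured. Ogt, which adds N-acetylglucosamine to intracellular proteins including human HAS2, had 36.6 ± 0.816 FPKM in Biotin-positive and 61.8 ± 2.70 FPKM in Biotin-negative libraries (log2 difference -0.74, SE 0.0392, limma adjusted p = 4.93e-07). The deacetylase gene Sirt1 averaged 4.18 ± 0.327 against 6.01 ± 0.843 FPKM and the transporter gene Abcc5, a proposed exporter of hyaluronan, 6.90 ± 0.398 against 9.63 ± 0.713 FPKM. Of 7 tested genes listed as other hyaluronan receptors, binding proteins or their relatives, 5 rose, 0 fell and 2 did not pass. The shares over all tested genes were 37.8% upward and 36.1% downward. Those that rose include the surface receptor gene Layn (log2 difference 0.21) and Cdc37 (0.14), both named after their values were seen. Serbp1, an RNA-binding protein related to the hyaluronan-binding HABP4, averaged 241 ± 20.5 against 173 ± 12.9 FPKM, Habp4 itself 13.3 ± 0.516 against 11.0 ± 0.116 FPKM, and the innate receptor gene Tlr2 9.08 ± 0.802 against 7.04 ± 0.388 FPKM. The endothelial hyaluronan receptor genes Lyve1, Stab1 and Stab2 stayed under 1 FPKM. Leaving out the mitotic list, 53 of 86 pathway genes were tested, of which 21 rose, 23 fell and 9 did not pass, and their median log2 difference was -0.06.

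**Figure D5:**
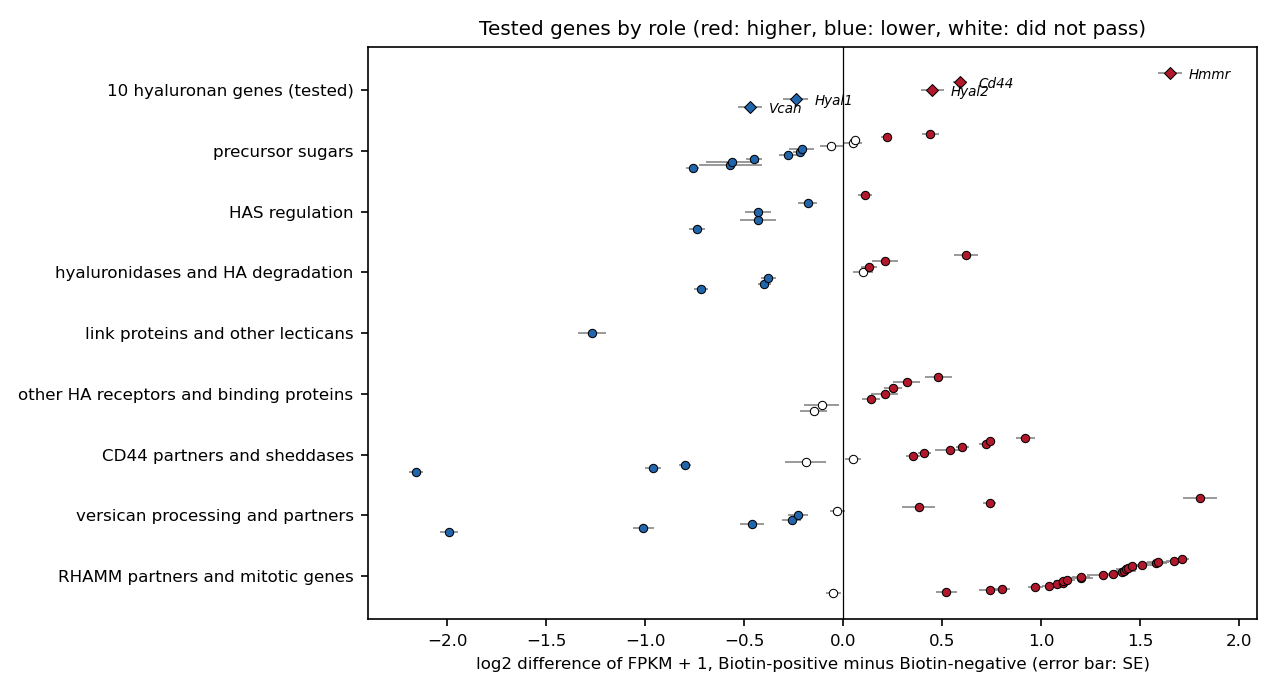
Log2 difference of FPKM + 1 (Biotin-positive minus Biotin-negative, error bars SE) of the tested genes by role, with the 5 tested hyaluronan genes as diamonds in the top row. The mitotic list lies to the right of 0 except for 1 gene at -0.05, while precursor, degradation and versican genes lie on both sides.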

How the data were processed

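RNA of 6 libraries of L929 cells, extracted with TRIzol, was sequenced. Per the submitters' processing notes, cutadapt 1.9.1, HISAT2 2.2.1 and HTSeq 0.6.1 were used with the build GRCm39. The authors deposited FPKM values, a column for each library; the denominator, the FPKM program and the strand setting are not given in the sources used here. The gene coordinates in the file equal those of GENCODE vM21, on GRCm38, for 99.1% of 21816 shared genes and all 10 hyaluronan genes, so printed coordinates are GRCm38.

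Values were taken as log2(FPKM + 1), and genes of at least 1 FPKM in at least 3 libraries entered limma 3.58.1 (R 4.3.3; two-sided eBayes test with trend). Benjamini-Hochberg adjustment ran over 11029 genes, at a threshold of 0.05. Single values used exact permutation tests (scipy 1.17.1). The procedure was checked on simulated data. That check drew independent libraries with few changed genes, whereas 73.9% of tested genes passed here. It does not cover genes under the filter or dependence between libraries. FPKM are not counts, showed no steps of single reads, and the precision is the SD over 3 libraries.

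The genes, the lists (110 further genes) and the motifs were chosen with earlier results of these data known. From each list up to 3 passing genes with the largest change were named, beside the 10 genes and neighbours within 100 kb. Some listed genes are counted but not reported here by name. Near-identical matches were sought with blastn 2.17.0 between GENCODE vM21 transcripts (98% identity, 100 bases); promoters are RefSeq, GRCm38.p6, found for 8 of 10 genes. Alternatives were other pseudocounts, filters, scalings, eBayes settings, a replicate term, and leaving out each library.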

Additional observations from a re-analysis of the deposited data

How the results depend on the processing

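Cd44, Hmmr, Vcan, Hyal1 and Hyal2 kept their direction and stayed past the threshold in all 16 alternatives. Their log2 differences ranged from 0.46 to 0.61 for Cd44, 1.60 to 1.78 for Hmmr, -0.53 to -0.42 for Vcan, -0.30 to -0.19 for Hyal1 and 0.39 to 0.51 for Hyal2. The highest limma adjusted p was that of Hyal1, 0.029, without Biotin-positive replicate 2. Without a filter on low values 6 of the 10 genes were called higher, against 3 with it, since Has2, Tnfaip6 and Cemip then entered the test. Of all 17058 genes in that fit 54.1% passed, 28.4% of them all upward and 25.6% downward. The added genes were all under 1 FPKM, and Has2, near 0 in Biotin-negative libraries, could not have been called lower. No other count of calls moved by more than 1.5 times. Of 1196 single-gene results under an alternative 1160 kept direction and side of the threshold, 21 lost the call, 6 gained it and 9 changed sign, none of these in a gene that had passed. Adam10 had -0.01 with an equal FPKM sum, Ugdh -0.06 with quantile normalization and -0.00442 with an equal sum, and Mesd -0.01 and -0.05 under the same settings. With single libraries left out, Spaca6 ranged from -0.02 to 0.24, Xrcc4 from -0.07 to 0.06 and Mesd from -0.00346 to 0.02; the cause was not tested. The replicate numbers are not stated to pair the libraries, and same-numbered libraries correlated by 0.0371, 0.012 and 0.0143 in their deviations from the group means. With the replicate block 4113 genes were called higher and 3927 lower, against 4168 and 3985 without it, and the counts for the 10 genes were again 3 and 2. The 3 libraries per group and the unknown depth limit what can be said of genes under 1 FPKM.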
